A study of Mus musculus with 6 samples.

Results

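The cytosolic ribosomal protein genes were followed in splenic follicular helper T (Tfh) cells with and without Bob1, a transcriptional coactivator encoded by Pou2af1. Members were chosen by name alone, as all genes named Rpl, Rps or Rplp with a number, plus Rpsa, leaving out S6 kinases and genes with a pseudogene name (-ps). This gave 82 of the 26211 genes named in the series table, 50 of the large and 32 of the small subunit, on 19 chromosomes. Of these, 81 had a value in all 6 libraries and 78 had a mean of at least 1 FPKM (fragments mapped to a transcript, scaled to its length in kilobases and to the depth of the library), the limit for testing. Rpl10l, Rpl3l and Rpl39l fell below it, the last just below with a mean of 0.76 FPKM. Rps4y2 was the lowest member above it, with 4.7 FPKM, and passed the name rule although RefSeq lists it as a transcribed pseudogene. Rpl37a was not tested because its transcripts were merged with those of a neighbouring gene in 1 library. It had 482, 771 and 905 FPKM in the WT libraries and 750 and 430 FPKM in the first and the third Bob1KO library.

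The group labelled Bob1KO came from FoxP3GFP/DTR CD4Cre/+Bob1 fl/fl mice and the group labelled WT from FoxP3GFP/DTR CD4+/+Bob1 fl/fl littermates, with 3 libraries each. Both groups therefore carried the floxed Pou2af1 allele, made on a C57BL/6 background, and the Foxp3 reporter with the diphtheria toxin receptor, and Cre under the Cd4 promoter acts in all cells that have expressed Cd4, not in Tfh cells alone. Mice aged 6 to 12 weeks received 100 µg of NP-CGG in complete Freund's adjuvant, and GFP-negative, B220-negative CD3+CD4+CXCR5+PD-1+ cells were sorted from spleens on day 7, each library being made from 0.7 ng of RNA of 1 experiment with 10 to 12 mice.

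The ribosome joins a large subunit, which forms peptide bonds, to a small subunit, which reads the mRNA. Nearly all of its proteins are single-copy parts needed in equal numbers, and their mRNAs are among the most abundant of a dividing cell. These mRNAs typically begin with a C followed by a stretch of pyrimidines, the 5′ terminal oligopyrimidine (TOP) start, through which mTORC1 controls their translation.

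The annotated starts show this feature in part of the members. RefSeq promoter entries (GRCm38.p6) matched 61 of the 82 members by symbol. A C followed by at least 4 bases that are all C or T, on the strand of the gene, stood exactly at an annotated start in 12 of the 61 members (19.7%), against 3.01% of all 27025 genes with an entry. Within 10 bases either side of a start, such a run began in 37 members (60.7%), against 34.4% of all genes. Shown are 5 members with the run at the start whose levels are described below, with 2 that lack it, Rplp0 and Rpl41, each from 10 bases before the annotated start on, with the run in capitals. They lie at chr3:90213629-90213658 (Rps27, minus strand), chr4:86857348-86857377 (Rps6, minus), chr7:141447641-141447670 (Rplp2, plus), chr2:39005112-39005141 (Rpl35, minus), chr11:114668570-114668599 (Rpl38, plus), chr5:115559457-115559486 (Rplp0, plus) and chr10:128549149-128549178 (Rpl41, minus).
Rps27: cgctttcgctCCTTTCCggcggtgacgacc
Rps6: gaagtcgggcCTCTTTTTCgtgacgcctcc
Rplp2: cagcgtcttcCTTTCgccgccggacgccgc
Rpl35: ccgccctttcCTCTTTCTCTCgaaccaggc
Rpl38: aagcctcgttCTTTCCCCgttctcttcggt
Rplp0: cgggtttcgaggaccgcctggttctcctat
Rpl41: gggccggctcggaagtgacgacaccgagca

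The libraries were checked against their labels first. Pou2af1 had 46.1, 32.5 and 34.4 FPKM in the WT libraries and 1.16, 0.237 and 0.317 FPKM in the Bob1KO libraries (limma, adjusted p = 0.00317). All 10 Tfh cell markers were detected, with a summed level of 3700 to 5010 FPKM in WT and 3950 to 5130 FPKM in Bob1KO libraries. Myeloid markers summed to 542 to 1010 FPKM in WT, but to 4670, 90.4 and 1450 FPKM in the Bob1KO libraries 1, 2 and 3. Naive T cell markers summed to 332 FPKM in WT 1 and to 538 to 877 FPKM in the other 5 libraries. B cell markers summed to at most 53.7 FPKM, in Bob1KO 1, of which Cd22 made up 44.9 FPKM. Some listed markers had no matched value and are missing from the sums. These were Ighm (B cell), Lyz2 (myeloid) and Hbb-bs, Hbb-bt and Hbb-b2 (erythroid). The Y-linked Ddx3y was found in WT 2 (29.9 FPKM) and Bob1KO 2 (27.9 FPKM) and was listed at 0 in the other 4 libraries.

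No ribosomal protein gene differed between Bob1KO and WT Tfh cells at an adjusted p of 0.05. Of the 78 members tested, 0 passed in either direction with limma on log2(FPKM + 1), beside 2 of all 10279 genes tested (0.0195%). At an unadjusted p of 0.05 the count was also 0 of 78, beside 5.33% of all genes, and the lowest unadjusted p of a member was 0.149. No member had 3 Bob1KO values all above or all below the 3 WT values, beside 5.81% of all genes that were higher and 4.82% that were lower without overlap. The log2 fold change was negative for 53 members and positive for 25, with a median of -0.046, beside 50.8% negative and a median of -0.0036 over all genes. In 64 members it was at most 0.2 in size, and the 95% confidence interval lay within a 2-fold change in either direction, that is 1 on the log2 scale, for 69. The interval of a typical member ran from -0.51 to 0.43, so that smaller shifts were not detectable with 3 libraries a group. These intervals are not adjusted over the 10279 genes, and a call at the adjusted p takes a still larger shift. Larp1, described below, was not called with a log2 fold change of -1.09 (limma, adjusted p = 0.249). In bulk samples, fewer cells of a type and less RNA per cell cannot be told apart.

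**Figure D1:**
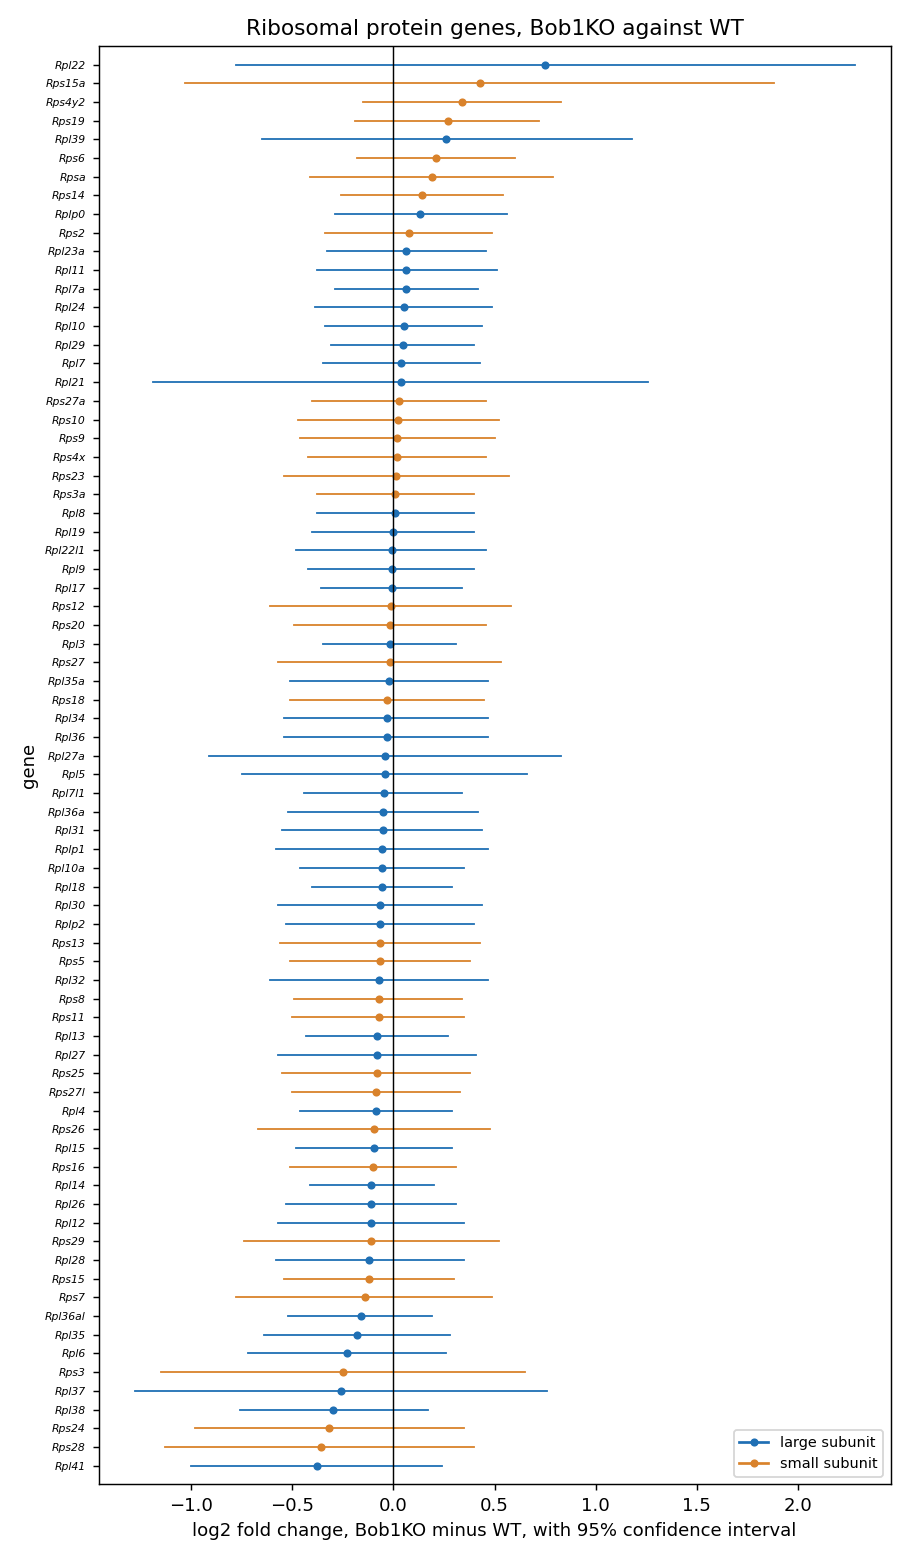
Log2 fold change of Bob1KO against WT (points) with its 95% confidence interval (lines) for the tested members shown, large subunit in blue and small subunit in orange. Every interval includes 0, and the points run from -0.38 (Rpl41) to 0.75 (Rpl22).

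Both subunits gave near-zero medians. The 46 large subunit genes had a median log2 fold change of -0.05, with 12 positive and 34 negative. The 32 small subunit genes had a median of -0.026, with 13 positive and 19 negative. The members together held 4.88%, 6.76% and 5.59% of all FPKM in the WT libraries and 6.38%, 5.68% and 4.89% in the Bob1KO libraries. These shares overlapped between the groups, with means of 5.74% ± 0.953 (SD, n = 3) in WT and 5.65% ± 0.746 (SD, n = 3) in Bob1KO cells. In the authors' table, whose group values come from 1 assembly of transcripts common to all libraries, the members summed to 33870 FPKM in WT and 32902 FPKM in Bob1KO cells.

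What set the libraries apart was a shift that most members shared. The summed level of the members was 24719, 34928 and 30561 FPKM in WT 1, 2 and 3 and 34335, 28383 and 23998 FPKM in Bob1KO 1, 2 and 3, a 1.46-fold span. The highest and the lowest library of each group thus enclosed nearly the same range. On the log2 scale, the median deviation of a member from its own mean over the 6 libraries was -0.26, 0.25 and 0.043 in the WT and 0.23, -0.014 and -0.26 in the Bob1KO libraries. The same median over all tested genes stayed between -0.061 and 0.057. Within WT, 59 of 78 members had their highest value in library 2 and their lowest in library 1, with library 3 between, an order found in 10.7% of all tested genes. Within Bob1KO, 65 of 78 members fell in the order 1, 2, 3, against 17.8% of all tested genes. Both orders held together for 56 members and for 2.8% of all tested genes. These orders were picked after the values were seen and are given as a description.

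**Figure D2:**
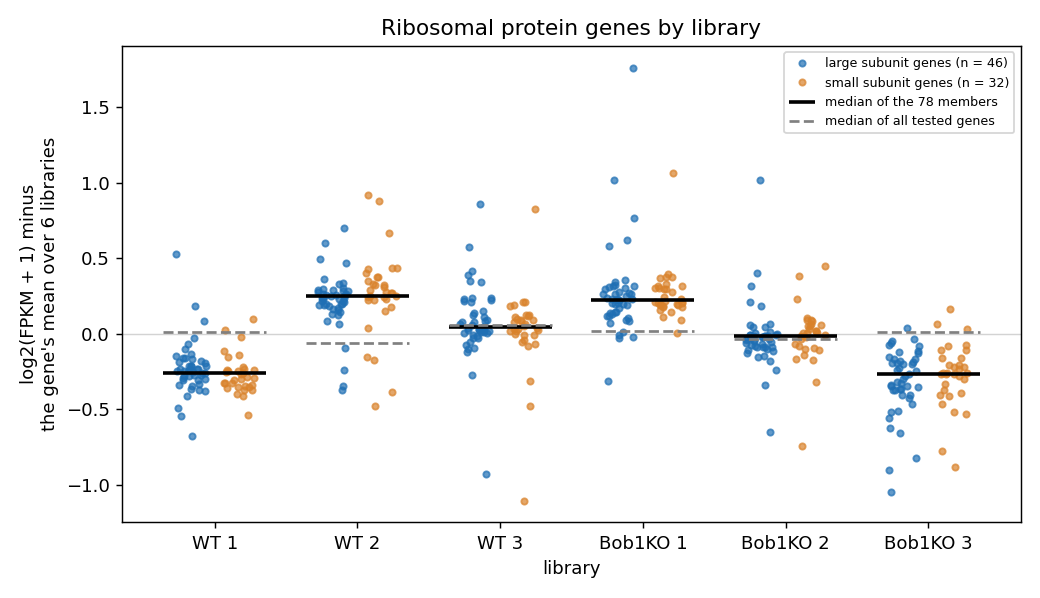
Deviation of each of the 78 members from its own mean log2(FPKM + 1) in each library, with the median of the members (black line) and of all 10279 tested genes (grey dashes). Large and small subunit genes shift together, downward in WT 1 and Bob1KO 3 and upward in WT 2 and Bob1KO 1.

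Same-numbered libraries differed in opposite directions. In the pair numbered 1, 77 of 78 members were higher in Bob1KO than in WT, with a median log2 difference of 0.47. In pairs 2 and 3, 9 and 4 members were higher, with medians of -0.28 and -0.34. Over all tested genes, 52.1%, 53.3% and 44.6% were higher in Bob1KO in these pairs. The direction of the members' median therefore rested on single libraries. It was 0.078 without WT 2 and 0.098 without Bob1KO 3, but -0.18 without WT 1, likewise -0.18 without Bob1KO 1, and 0.072 without both number 2 libraries, the pair with Ddx3y. Over the markers with a matched value, no sum of other cells ran in the order of the members in both groups. Erythroid markers did so in WT (3.42, 14.7 and 9.7 FPKM) but not in Bob1KO cells (10.3, 7.38 and 18.2 FPKM). Of the libraries low in members, WT 1 had the lowest naive T cell sum (332 FPKM) and Bob1KO 3 one of the higher sums (786 FPKM), with myeloid sums of 693 and 1450 FPKM. Of the libraries high in members, Bob1KO 1 had the highest myeloid sum (4670 FPKM) and WT 2 a low one (542 FPKM). The part of these transcripts in the shift was not tested.

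The proteins of the acidic stalk recruit translation factors to the large subunit, and their genes followed the shared shift. Rplp1 had 523, 797 and 645 FPKM in the WT and 786, 619 and 491 FPKM in the Bob1KO libraries. Its log2 fold change was -0.056 ± 0.222 (SE, adjusted p = 0.987 with limma). Rplp2 had 446, 635 and 525 FPKM in WT and 622, 508 and 409 FPKM in Bob1KO cells. Rplp0, which anchors the other two, had 476, 623 and 598 FPKM in WT and 692, 681 and 496 FPKM in Bob1KO cells. All 3 genes were lowest in WT 1 and Bob1KO 3 within their groups, and their groups overlapped.

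Among the most abundant members, Rps27 led. Rps27, a small subunit protein with a zinc finger, had 1200, 1810 and 1340 FPKM in the WT libraries and 1750, 1470 and 1080 FPKM in the Bob1KO libraries. Rpl13 had 1130, 1320 and 1470 FPKM in WT and 1330, 1190 and 1170 FPKM in Bob1KO cells. Rpl32 had 716, 1100 and 1100 FPKM in WT and 1070, 976 and 720 FPKM in Bob1KO cells. The log2 fold changes of these genes lay between -0.079 and -0.019. Rps14, mutated or lost in human disorders of red cell formation, had 596, 847 and 756 FPKM in WT and 881, 818 and 705 FPKM in Bob1KO cells. Its value in Bob1KO 2 is that of a row that also covers a neighbouring gene. Rpl35 had 561, 856 and 902 FPKM in WT and 707, 661 and 640 FPKM in Bob1KO cells. Its Bob1KO libraries were the closer together, within the range of the WT libraries.

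**Figure D3:**
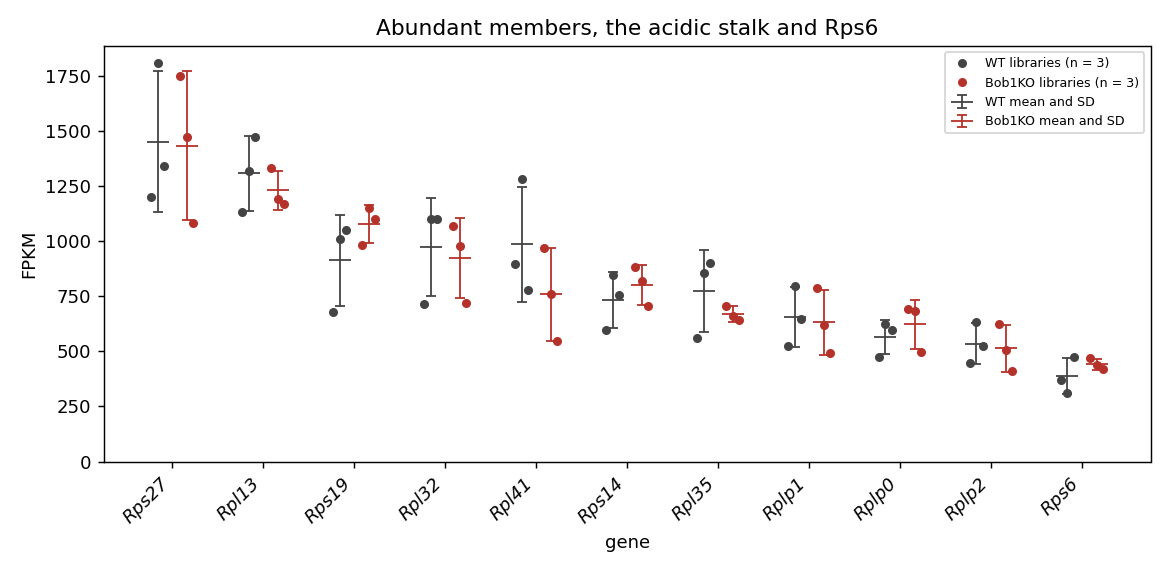
FPKM of abundant members, the acidic stalk genes and Rps6 in each library (points), with the mean and SD of 3 libraries per group, WT in grey and Bob1KO in red. The groups overlap for every gene, and Rps27 is the highest, from 1080 to 1810 FPKM.

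The most negative differences were small against the spread of the libraries. Rpl41, the shortest ribosomal protein, had 897, 1280 and 777 FPKM in WT and 969, 762 and 547 FPKM in Bob1KO cells, a log2 fold change of -0.38 ± 0.264 (SE, adjusted p = 0.944 with limma). Rpl38, which in the embryo is needed for the translation of Hox mRNAs, had 459, 591 and 515 FPKM in WT and 534, 429 and 329 FPKM in Bob1KO cells, a log2 fold change of -0.3 ± 0.197. The Bob1KO libraries 2 and 3 were below all WT libraries for Rpl38 and Rpl41, while Bob1KO 1 was not. Rps28 and Rps24 were also among the negative differences with the smallest p, with log2 fold changes of -0.36 and -0.32. In WT and Bob1KO cells, the authors' group values were 957 and 897 FPKM for Rpl41 and 583 and 503 FPKM for Rpl38. They were 352 and 325 FPKM for Rps28 and 212 and 208 FPKM for Rps24.

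The positive differences with the smallest p did not pass the test either. Rps19, the gene most often mutated in Diamond-Blackfan anaemia, had 677, 1010 and 1050 FPKM in WT and 984, 1150 and 1100 FPKM in Bob1KO cells, a log2 fold change of 0.27 ± 0.194 (SE, adjusted p = 0.944 with limma). Rps6, the protein that S6 kinases phosphorylate downstream of mTORC1, had 372, 313 and 474 FPKM in WT and 468, 436 and 419 FPKM in Bob1KO cells, a log2 fold change of 0.21 ± 0.166. Unlike most members, Rps6 was lowest in WT 2. Its mean over the libraries was 1.68 times the mean of the authors' 2 group values, 246 and 247 FPKM, which were nearly equal. Rpsa, which is also known as a laminin receptor, had 488, 782 and 416 FPKM in WT and 747, 613 and 517 FPKM in Bob1KO cells. Rps14, Rpl22 and Rps4y2 were also among the 6 positive differences with the smallest p. In WT and Bob1KO cells, the authors' group values were 1430 and 1410 FPKM for Rps19 and 963 and 955 FPKM for Rps14. They were 397 and 425 FPKM for Rpsa and 4.65 and 6.31 FPKM for Rps4y2.

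The 5S particle genes are known from the p53 pathway, since free Rpl5 and Rpl11 bind Mdm2. Rpl11 had 217, 320 and 280 FPKM in WT and 338, 275 and 239 FPKM in Bob1KO cells, a log2 fold change of 0.063. Rpl5 had 110, 94.2 and 182 FPKM in WT and 135, 152 and 84.8 FPKM in Bob1KO cells, a log2 fold change of -0.043. Rpl26, which binds the p53 mRNA, had a log2 fold change of -0.11. Rpl11 followed the shared shift, whereas Rpl5 was highest in WT 3 and Bob1KO 2.

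Most ribosomal protein genes have a single active copy, but several have a paralog, and some paralogs can take the parent's place or are used in few tissues. Rpl22l1 had 76, 105 and 111 FPKM in WT and 106, 109 and 75.1 FPKM in Bob1KO cells. Its parent Rpl22, a protein required for the development of αβ T cells, had 40.2, 40.4 and 22.2 FPKM in WT and 149, 57.5 and 20.4 FPKM in Bob1KO cells, a 7.3-fold span. The log2 fold change of Rpl22 was the highest of all members, 0.75 ± 0.648 (SE, adjusted p = 0.945 with limma), and the authors' group values for it were 29.1 and 30.2 FPKM. The log2 ratio of Rpl22l1 to Rpl22 was 0.9, 1.35 and 2.27 in WT and -0.49, 0.91 and 1.83 in Bob1KO cells, a difference of -0.76 (exact permutation test, two-sided p = 0.5, adjusted over 5 pairs 0.833). Rpl36al stood above Rpl36a in every library, with log2 ratios of 1.24, 1 and 1.13 in WT and 0.95, 0.98 and 1.09 in Bob1KO cells. Their difference was -0.11 (exact permutation test, p = 0.2, adjusted 0.75). The Rpl36al value in Bob1KO 1 is that of a row that extends beyond the gene.

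Rps27l and Rpl7l1 stood below their parents. Rps27l, a p53 target, reached a mean of 7.83% of the Rps27 level in WT and 7.37% in Bob1KO cells. Rpl7l1 reached 19.7% and 17.9% of the Rpl7 level. Rps4y2, which RefSeq lists as the transcribed pseudogene Rps4l, reached 2.06% and 2.63% of the Rps4x level and had 4.52, 3.97 and 3.52 FPKM in WT and 6.03, 6.31 and 3.85 FPKM in Bob1KO cells. The differences of the log2 ratios were -0.065, -0.088 and 0.32 for these pairs (exact permutation tests, p = 0.9, 0.8 and 0.3, adjusted 0.9, 0.9 and 0.75). With 3 libraries against 3, such a test cannot give less than 0.1. Of the other parents, Rpl3, Rpl10 and Rpl39 had log2 fold changes of -0.017, 0.051 and 0.26.

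**Figure D4:**
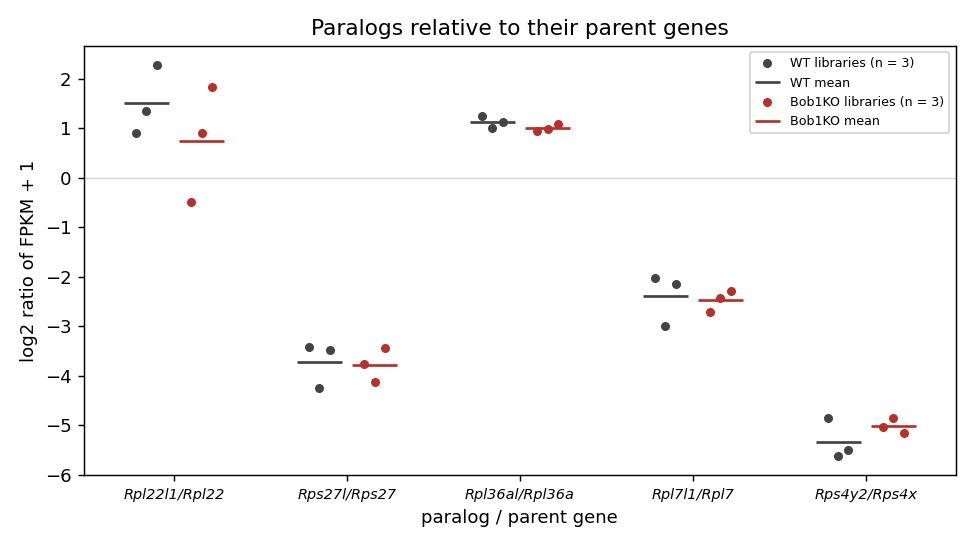
Log2 ratio of each paralog to its parent gene in each library (points) with the mean of 3 libraries per group (lines), WT in grey and Bob1KO in red. The groups overlap in all 5 pairs, and Rpl22l1/Rpl22 has the widest spread, from -0.49 to 2.27.

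A further 46 members had means of 82 to 676 FPKM and log2 fold changes of -0.26 to 0.43, of which 33 were negative, and none had an unadjusted p below 0.307. The level per library was less steady for some genes. About the shared shift, the SD over libraries was at most 0.1 on the log2 scale for 39 of 78 members and over 0.3 for 13, among them Rpl22 and Rps6. The mean over the libraries lay within 1.5 times the authors' group values for 72 members and above that for 6, Rps15a, Rpl15, Rpl37, Rpl27a, Rpl22 and Rps6. Transcripts were assembled in each library separately, and the part of this in the spread of single genes was not tested.

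The shared shift was looked for in neighbouring gene lists. The ribosomal proteins Fau and Gnb2l1 (Rack1), which the name rule missed, had a median deviation of -0.25, 0.25 and 0.067 in the WT and 0.19, -0.029 and -0.24 in the Bob1KO libraries. The 17 other mRNAs known for a TOP start followed the same order at a smaller size, with -0.12, 0.15 and 0.052 in WT and 0.14, -0.043 and -0.073 in Bob1KO cells. Members with and without the run at the annotated start had nearly the same profile, from -0.32 to 0.27 in the 12 with it and from -0.26 to 0.24 in the 45 tested members without it. This split cannot separate TOP mRNAs from others, since 37 members had a run within 10 bases of an annotated start. The starts used in these cells were not measured. The 7 elongation factors, which move the ribosome along the mRNA, had -0.23, 0.064 and 0.1 in WT and 0.13, -0.011 and -0.0071 in Bob1KO cells. These lists overlap, since Eef1a1, Eef1b2, Eef1g and Eef2 are counted both as elongation factors and as other TOP mRNAs. Some initiation factors and the assembly gene Npm1 are also on the TOP list. The medians of 25 initiation factors and of 51 ribosome assembly genes lay between -0.055 and 0.15 in all libraries. Those of the 74 mitochondrial ribosomal protein genes were -0.036, 0.0072 and 0.19 in WT and 0.061, -0.17 and -0.094 in Bob1KO cells, in another order than that of the cytosolic ones.

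Transcript length was looked at because many members are short. The 281 other tested genes with a spliced length under 700 bases had median deviations of -0.0079, 0.089 and 0.14 in WT and 0.16, -0.12 and -0.28 in Bob1KO cells. In the Bob1KO libraries they thus ran in the order of the members and over a similar range, whereas in WT they did not. The 30 members under 700 bases had -0.28, 0.27 and 0.085 in WT and 0.23, -0.027 and -0.34 in Bob1KO cells. The 48 longer members had -0.25, 0.23 and 0.041 in WT and 0.22, -0.013 and -0.22 in Bob1KO cells, so that the shift was present in members of both length classes. The part of transcript length in the shift was not tested.

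**Figure D5:**
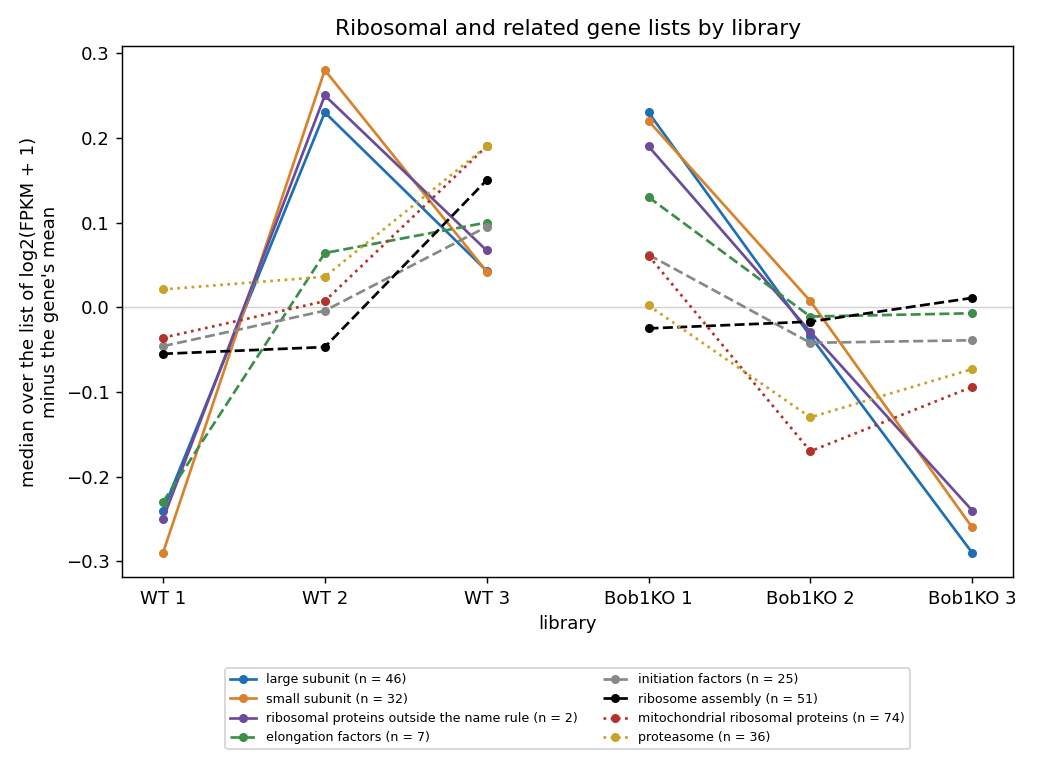
Median deviation from the gene mean of log2(FPKM + 1) in each library for 8 gene lists, with lines joining the libraries of a group only for legibility. The large subunit, the small subunit and the 2 ribosomal proteins outside the name rule move together, while initiation factors and assembly genes stay between -0.055 and 0.15.

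None of these lists held a gene past the adjusted p. The median log2 fold change was 0.1 for elongation factors, -0.041 for initiation factors, -0.041 for ribosome assembly, 0.0023 for RNA polymerase I and its partners, -0.003 for MYC and its partners and -0.078 for mTORC1 and translation control. The mitochondrial ribosomal proteins had a median of -0.086 with 58 of 74 negative, and the proteasome, which degrades proteins, a median of -0.13 with 35 of 36 negative. Among other genes with at least 100 FPKM, 607 of 855 were negative, with a median of -0.074. The smallest p in these lists was that of Larp1, a protein that binds TOP mRNAs and represses their translation. Larp1 had 55.6, 55.4 and 62.8 FPKM in WT and 29, 20.2 and 32.2 FPKM in Bob1KO cells, without overlap, a log2 fold change of -1.09 ± 0.179 (SE, unadjusted p = 0.000462, adjusted p = 0.249 with limma). In the authors' table, made on the common assembly, Larp1 had group values of 46.5 FPKM in WT and 48.4 FPKM in Bob1KO cells. The lower level in Bob1KO cells was thus present in the values of the separately assembled libraries and not in those of the common assembly.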

How the data were processed

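Tfh cell RNA was amplified with the SMART-Seq v4 kit and sequenced in 6 libraries, 3 per group. Per the submitters' processing notes, the authors used cutadapt 1.2.1, TopHat2 2.0.13 and Cufflinks 2.2.1 with GRCm38 (mm10), and the deposited FPKM of each library were made on its own assembly of transcripts. For the gene annotation, a version was not stated. The authors' table of both groups also holds fold changes, statistics, p-values and q-values, which were not used.

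Rows were assigned to the gene with which they shared at least 0.5 of their joint length, or of which they covered at least 0.95, and were summed per gene, giving 25681 genes in all libraries and 91.61% to 92.2% of the FPKM. Rows that cover 2 genes cannot be split, as for Rps14 in Bob1KO 2. Genes with a mean of at least 1 FPKM were tested on log2(FPKM + 1) with limma 3.58.1 (R 4.3.3) with a variance trend and Benjamini-Hochberg adjustment over 10279 genes. The test was also run on simulated data, made from the means and residual SDs of the tested genes with noise drawn separately per gene. A shift shared by many genes was not simulated. The files hold no counts, so no count test was run and depth was not estimated. The p-values measure the spread between libraries of pooled mice.

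Same-numbered libraries deviated together over all genes (r = 0.116, 0.149 and 0.103), and both number 2 libraries carried Y-linked transcripts, so the numbers were taken to pair the libraries. Over the members alone, r was 0.314, 0.0453 and 0.495 for the same numbers, but 0.378 for WT 2 with Bob1KO 1. The main limma fit and the permutation tests did not use the pairing. Named were the 6 positive and 6 negative differences with the smallest p, the 8 most abundant members, of which some are not reported here, the stalk, 5S particle, S6 kinase substrate and paralog lists, and genes of related lists with the smallest p. The members and lists were chosen with earlier results of these data known. Alternatives were another pseudocount, filter, scaling, variance model, matching, a replicate block and leaving out libraries.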

Additional observations from a re-analysis of the deposited data

How the results depend on the processing

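The count of members past the adjusted p stayed at 0 in all 18 alternative settings, with each library left out included, and none of the 30 named members passed in any of them. The median log2 fold change of the members (-0.046) moved by less than the spread between libraries (0.249), but its sign depended on the setting. It was 0.0014 after quantile normalization and 0.072 without both replicate 2 libraries, and ran from -0.18 to 0.098 with 1 library left out. The median of the large subunit ran from -0.18 to 0.094, that of the small subunit from -0.2 to 0.12, and the difference in the share of FPKM from -0.53 to 0.41 percentage points. Since the replicate numbers were taken to pair the libraries, a replicate block was fitted, which left the median at -0.046 and the count at 0 and changed no other call. Other settings were chosen after seeing the data, the alignment of the libraries on the members (median -0.016) and a restriction to the 72 members close to the authors' group values (median -0.05).

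Of the named members, 19 changed sign in at least 1 setting. After quantile normalization, log2 fold changes became 0.047 (Rpl22l1), 0.077 (Rpl3) and 0.0039 (Rpl5). After scaling by the FPKM of all other genes they were 0.029 (Rpl22l1), 0.021 (Rpl3) and 0.019 (Rps27), and after alignment on the members 0.022, 0.013 and 0.011. Without both replicate 2 libraries they were 0.071 (Rpl3), 0.06 (Rpl36a), 0.098 (Rplp1), 0.061 (Rplp2) and 0.12 (Rps27). With 1 library left out, they ran from -0.17 to 0.16 for Rpl22l1, -0.14 to 0.057 for Rpl3, -0.24 to 0.23 for Rpl5, -0.18 to 0.17 for Rps27, -0.087 to 0.15 for Rpl10, -0.092 to 0.19 for Rpl11, -0.081 to 0.16 for Rpl7, -0.23 to 0.058 for Rpl7l1, -0.0043 to 0.25 for Rps14, -0.14 to 0.16 for Rps4x, -0.28 to 0.099 for Rpl32, -0.22 to 0.097 for Rpl36a, -0.23 to 0.11 for Rplp1, -0.22 to 0.085 for Rplp2, -0.61 to 0.0027 for Rps28, -0.18 to 0.01 for Rpl13, -0.18 to 0.61 for Rpl39, -0.24 to 0.055 for Rps27l and -0.26 to 0.024 for Rpl26. The difference in the log2 ratio ran from -0.33 to 0.11 for Rps27l/Rps27 and from -0.39 to 0.09 for Rpl7l1/Rpl7. The cause of these changes was not tested.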

Other observations

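Ribosomal protein genes that share a row with a small RNA in the annotation fell outside the name rule and were looked at after their values were seen. The row of Rps21 and Mir3091 had 143, 219 and 173 FPKM in WT and 243, 176 and 122 FPKM in Bob1KO cells, in the same order of libraries as most members. The row of Rpl13a, Mir5121 and Snord33 had 705, 580 and 813 FPKM in WT and 606, 481 and 431 FPKM in Bob1KO cells, a log2 fold change of -0.47 (limma, unadjusted p = 0.0371, adjusted p = 0.92). The authors' group values for this row were closer together, 581 FPKM in WT and 553 FPKM in Bob1KO cells. The row of Rpl23 and Snora21 varied from 87.9 to 433 FPKM, with 346 FPKM in WT 2 and 433 FPKM in Bob1KO 2.

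Of the retrocopies, only rows that carry a pseudogene name were looked at. Rpl34-ps1 had 0.681 to 3.52 FPKM. The row that Rplp2-ps1 shares with Wdr89 had 7.28 to 12.3 FPKM, which cannot be split between them. The row shared by Rps19-ps3 and Zfp933 had 1.43, 1.09 and 0.901 FPKM in WT and 2.47, 2.59 and 1.75 FPKM in Bob1KO cells (limma, unadjusted p = 0.0255, adjusted p = 0.92). Here the authors' group values were 1.01 FPKM in WT and 1.36 FPKM in Bob1KO cells. Among mitochondrial ribosomal proteins, Mrps9 had the smallest p, with 28.5 ± 1.45 FPKM (SD, n = 3) in WT and 22.7 ± 1.44 FPKM (SD, n = 3) in Bob1KO cells (limma, adjusted p = 0.92). In the proteasome list it was Psmd9, with 23 ± 1.19 and 14 ± 3.39 FPKM (adjusted p = 0.558). In WT and Bob1KO cells, the authors' group values were 33.7 and 30.0 FPKM for Mrps9 and 15.2 and 13.8 FPKM for Psmd9.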
